A study of Mus musculus with 6 samples.

Results

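Il17a, Il17f, Il23r, Blk, Sox13, Ccr6, Maf and Cd163l1 are 8 genes used to recognise gamma delta T cells that make interleukin 17 (IL-17). They were followed in mouse ear skin, in total RNA read on 6 one-colour arrays. The genes were taken by name, as every non-control probe that carries one of these names in the scanner files, which gave 8 genes of 23675 tested and 9 probes of 29601 kept. The set had been put together with results of the comparison between the groups in view. The differences between groups are therefore a description, with no test of the members.

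The 3 control mice (WT) are labelled NC16A sufficient and numbered 1, 2 and 3, and the 3 knockout mice (KO) are labelled NC16A deficient and numbered 1, 2 and 7. NC16A is a segment of BP180, also called collagen XVII, a transmembrane collagen that ties basal keratinocytes to the basement membrane. The study's title concerns inflammation of the skin that arises without an applied trigger when BP180 does not work. The labels state neither treatment, strain, age nor the extent of the deletion. The design text says that age and sex were matched, and 1 array was made for each mouse.

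Gamma delta T cells that make IL-17 are set on this course in the fetal thymus and settle in the dermis, and in mice they are a main source of IL-17 in inflamed skin. They respond to interleukin 23 and interleukin 1 without needing an antigen, and the IL-17A and IL-17F they release act on keratinocytes, which answer with antimicrobial proteins and with chemokines for neutrophils. The epidermis of mice holds another gamma delta population, the dendritic epidermal T cells, which is not known as a main source of IL-17.

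Values are the log2 of the processed signal divided by the array's 75th percentile, so 0 is the level below which 75% of the probes on that array lie. Between 72.6% and 78.2% of spots were well above background, by the scanner software's own call. The 75th percentile of the unscaled signal ranged from 5288 to 6656 in WT mice and from 3813 to 4417 in KO mice, so every KO array was dimmer before scaling. The WT arrays and KO 1 shared a slide (slide 1), while KO 2 and KO 7 were on slide 2. A difference within slide 1 therefore rests on KO 1 alone. So does the difference in a fit with slide as a fixed block, called slide as a block below. Its value is KO 1 minus the WT mean. All 8 keratinocyte and fibroblast genes looked at (Krt5, Krt14, Krt10, Lor, Flg, Col1a1, Col1a2 and Dcn) were well above background on all 6 arrays, as skin would be. Signals of different probes are on different scales, and no gene's level is compared with another's. In whole skin, fewer cells of a type and less RNA per cell cannot be told apart.

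On the probe used in the fit, each of the 8 genes had a positive difference, KO minus WT. The median was 1.61, against 0.05 for all genes tested. In 7 of the 8, every KO array lay above every WT array on that probe, which was so for 21.4% of all genes. Sox13 was the exception, and Maf was separated by only 0.014. The other probe of Maf overlapped and gave -0.36, so no direction is given for Maf. Of the 8, 6 were at least 2-fold higher in KO, a count with no share of all genes beside it. The fit over all genes called 3 of the 8 higher and 0 lower (Il17a, Il17f and Cd163l1). Beside this, 1.98% of all genes were called higher and 0.389% lower. Since the set was chosen with this contrast in view, nothing is read from either count. All 8 passed the filter on dim probes, which asks for 3 of 6 arrays well above background, and 5 did so on all 6 arrays. Those that did not were Il17a, Il17f and Blk, which were dim in WT.

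**Figure D1:**
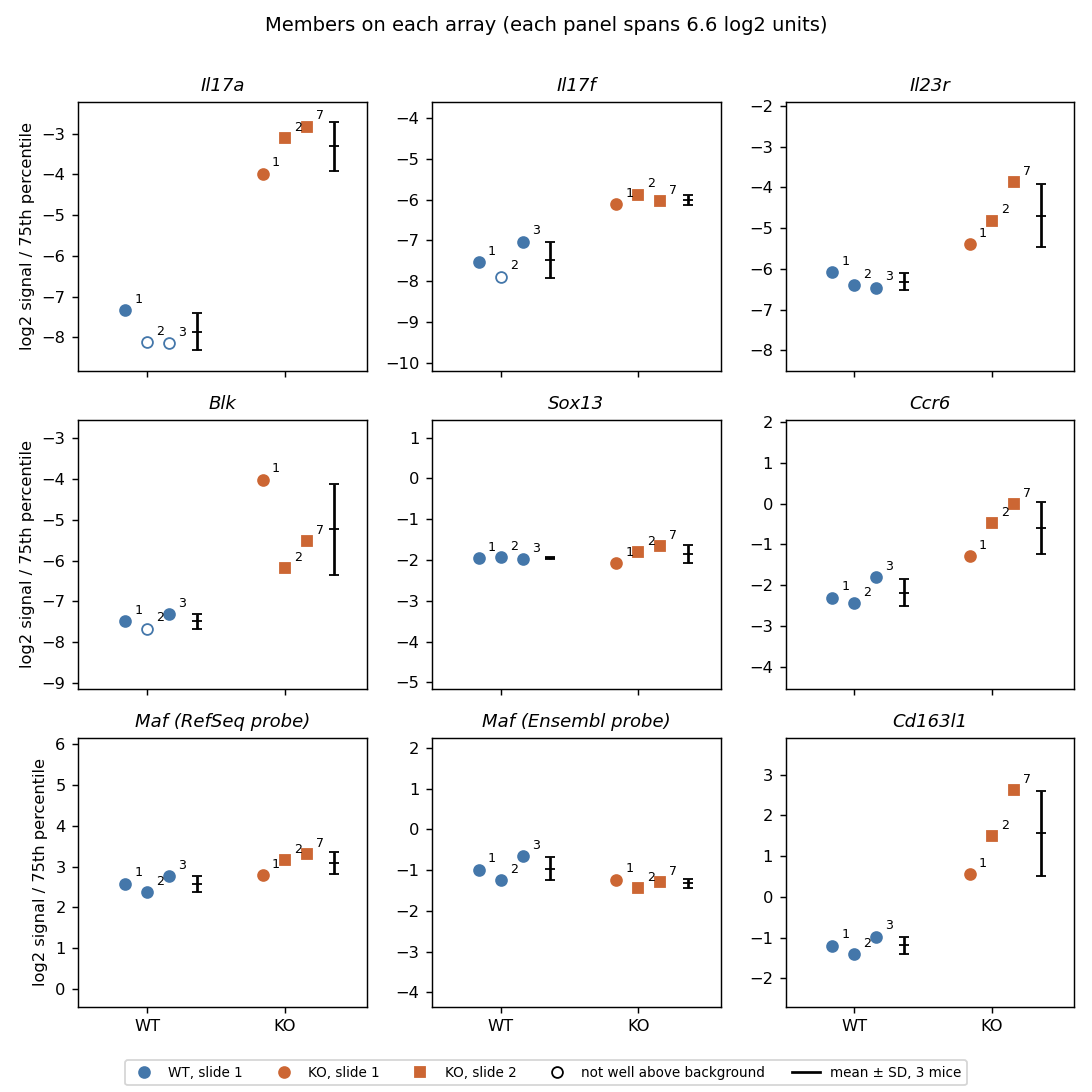
Each panel plots 1 probe of a member, with the log2 signal, scaled by the 75th percentile of its array, on the y axis and the 3 WT and 3 KO arrays on the x axis, numbered by mouse. Circles are slide 1, squares slide 2 and open symbols arrays not well above background, and the bars give the mean ± SD of 3 mice. Il17a has the widest space between the groups, Sox13 overlaps, and the Maf probes move in opposite directions.

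Il17a encodes IL-17A, the founding cytokine of the family. Its probe lies at chr1:20724404-20724463 of mm9, on the plus strand. WT 1, 2 and 3 gave processed signals of 41.4, 19.1 and 19.5, against 279, 479 and 534 for KO 1, 2 and 7. Only WT 1 was well above background among the WT arrays, while all KO arrays were. On the log2 scale WT 1, 2 and 3 gave -7.33, -8.11 and -8.14, and KO 1, 2 and 7 gave -3.98, -3.12 and -2.83. The lowest KO array was 3.35 above the highest WT array. The WT mean was -7.86 ± 0.46 (SD, n = 3) and the KO mean -3.31 ± 0.60 (SD, n = 3). The difference was 4.55 ± 0.36 (SE of the limma fit), with a 95% confidence interval from 3.70 to 5.40, or 23.4-fold. As 2 of 3 WT arrays were not well above background, the size of this fold is uncertain. Within slide 1 the difference was 3.88.

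Il17f encodes IL-17F, which pairs with IL-17A or with itself and signals through the same receptor. It lies beside Il17a on chromosome 1, and the probes are 43.6 kb apart on opposite strands. The Il17f probe matches mm9 in pieces between 20768074 and 20769419, so its 60 bases are spread over 1346 bases of genome. This probe is shown because a spliced match of this kind reads joined transcript sequence and not the genomic strand.

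Il17f probe: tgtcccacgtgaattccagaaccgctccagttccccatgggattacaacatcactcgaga

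On the log2 scale Il17f read -7.53, -7.89 and -7.03 in WT 1, 2 and 3, against -6.10, -5.87 and -6.04 in KO 1, 2 and 7. WT 2 was not well above background. The KO arrays lay within a narrow band, at -6.00 ± 0.12 (SD, n = 3), while WT mice were at -7.48 ± 0.43 (SD, n = 3). The difference was 1.48 ± 0.23, with a 95% interval from 0.93 to 2.03, or 2.78-fold, and within slide 1 it was 1.38. The processed signal itself was low throughout, at most 42.2 in WT and at most 71.0 in KO. The neighbouring cytokine genes thus showed fitted differences of 4.55 and 1.48 in the same mice, on probes that both sat near background in WT.

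Il23r encodes the specific chain of the interleukin 23 receptor, through which type 17 lymphocytes are kept active. Its probe lies at chr6:67372966-67373025 of mm9, on the minus strand, and was well above background on all 6 arrays. WT 1, 2 and 3 gave -6.08, -6.40 and -6.46, and KO 1, 2 and 7 gave -5.39, -4.82 and -3.87. KO 7 was the highest array and KO 1 the lowest of the KO arrays, still above each WT array. The difference was 1.62 ± 0.37, with a 95% interval from 0.73 to 2.51, or 3.07-fold. It was 0.92 within slide 1, 1.50 in KO 2 and 2.44 in KO 7 when each was set against the WT mean.

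The starts of the cytokine genes and of Il23r are shown because these 3 encode the cytokines and the receptor that sustains their makers. Il17a and Il17f were called higher in KO by the fit, and Il23r was not. RefSeq (GRCm38.p6) gave windows of 250 bases before the start for 6 of the 8 members, 7 windows in all, since Ccr6 has more than 1 start. Each is written in the direction of the gene, with its last base next to the start. Capitals mark the half-site shared by many nuclear receptors, AGGTCA or TGACCT on the other strand, and the half-site of MAF factors, TGCTGAC or GTCAGCA. Both motifs were picked after the windows had been seen.

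Il17a, chr1:20730655-20730904, plus strand: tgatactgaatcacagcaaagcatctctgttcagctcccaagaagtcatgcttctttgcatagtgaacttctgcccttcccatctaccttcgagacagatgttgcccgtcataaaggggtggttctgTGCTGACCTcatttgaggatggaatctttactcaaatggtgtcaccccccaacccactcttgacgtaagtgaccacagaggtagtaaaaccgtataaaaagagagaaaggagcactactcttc

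Il17f, chr1:20784271-20784520, minus strand: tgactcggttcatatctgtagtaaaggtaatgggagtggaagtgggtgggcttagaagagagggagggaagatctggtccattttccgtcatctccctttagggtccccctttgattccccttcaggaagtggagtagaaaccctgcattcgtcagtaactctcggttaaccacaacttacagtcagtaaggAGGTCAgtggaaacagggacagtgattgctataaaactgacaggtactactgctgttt

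Il23r, chr6:67491856-67492105, minus strand: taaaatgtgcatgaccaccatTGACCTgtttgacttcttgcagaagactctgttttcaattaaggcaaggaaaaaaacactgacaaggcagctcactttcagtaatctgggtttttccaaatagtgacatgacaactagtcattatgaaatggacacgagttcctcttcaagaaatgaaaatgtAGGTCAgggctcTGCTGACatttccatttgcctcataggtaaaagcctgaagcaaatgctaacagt

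The nuclear receptor half-site stood 120 to 115 bases before the start of Il17a, where it overlaps a MAF half-site at 123 to 117. In Il17f it stood at 58 to 53. Il23r held 2 nuclear receptor half-sites, at 229 to 224 and at 66 to 61, and a MAF half-site at 54 to 48. Of the other windows, 1 of Ccr6 held a match to each motif (nuclear receptor at 44 to 39, MAF at 193 to 187), and the windows of Sox13, Cd163l1 and the second start of Ccr6 held neither. Among all 32851 windows of this length, 14.0% held the nuclear receptor half-site, 3.81% the MAF half-site and 0.919% both. A match describes the letters in the window and nothing of what binds there.

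Ccr6 encodes the receptor for the chemokine CCL20, which guides type 17 cells, B cells and some dendritic cells into skin. Its probe lies at chr17:8449933-8449992 of mm9, on the plus strand. WT 1, 2 and 3 gave -2.30, -2.45 and -1.80, and KO 1, 2 and 7 gave -1.28, -0.48 and -0.02. Every KO array was above every WT array, by at least 0.52. The difference was 1.59 ± 0.34, with a 95% interval from 0.77 to 2.41, or 3.01-fold. It was 0.90 within slide 1, 1.71 in KO 2 and 2.16 in KO 7. The probe of Ccl20, the ligand's gene, was not well above background on any array.

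Cd163l1, also named Scart1, encodes a scavenger receptor of the surface of gamma delta T cells. Its probe lies at chr7:147416971-147417030 of mm9, on the plus strand, and its processed signal was 2903, 2003 and 2810 in WT 1, 2 and 3. In KO 1, 2 and 7 it was 6490, 11749 and 23306. On the log2 scale the WT arrays read -1.20, -1.40 and -0.97, and the KO arrays 0.56, 1.50 and 2.61. The KO mice were spread widely, with a mean of 1.56 ± 1.03 (SD, n = 3), but the lowest lay 1.53 above the highest WT array. The difference was 2.74 ± 0.48, with a 95% interval from 1.59 to 3.90, or 6.70-fold, and within slide 1 it was 1.74. Unlike Il17a, Cd163l1 was well above background on all 6 arrays, so its fold rests on measured signal in both groups. The related gene Scart2, listed as 5830411N06Rik, had a difference of 1.03 ± 0.21, which missed the threshold (limma adjusted p = 0.061).

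Blk encodes a kinase of the Src family that works in B cell receptor signalling and is also made by gamma delta T cells of the type 17 lineage. Its probe, like that of Il17f, matches the genome in pieces, between 63997333 and 63998470 on chromosome 14 of mm9, on the minus strand. It is shown because it reads joined transcript sequence of the 1 member whose order among the KO mice differed most from the rest.

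Blk probe: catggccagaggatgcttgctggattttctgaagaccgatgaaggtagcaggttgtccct

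Blk read -7.49, -7.67 and -7.30 in WT 1, 2 and 3, with WT 2 not well above background, and -4.01, -6.17 and -5.52 in KO 1, 2 and 7. KO 1 was by far the highest, with a processed signal of 274 against 57.7 in KO 2 and 82.8 in KO 7. The difference was 2.25 ± 0.52, with a 95% interval from 1.02 to 3.48, or 4.76-fold. Within slide 1 it was 3.47, and without KO 1 it was 1.64 ± 0.24. The lowest KO array was 1.13 above the highest WT array.

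B cells make Blk and Ccr6 too, and their markers were set beside these values. Of 16 B cell markers tested, 1 rose (Fcmr, a receptor for IgM, by 1.26 ± 0.16, limma adjusted p = 0.013), 1 fell (Bank1, a scaffold of B cell signalling, by -1.16 ± 0.19, limma adjusted p = 0.037) and 14 did not pass. At an unadjusted p under 0.05, 7 markers were higher and 2 lower, beside 3998 higher and 2303 lower of all 23675 genes. The median of the 16 markers was 0.34, and -0.04 within slide 1. Their summed signal, in units of the array's 75th percentile, was 12.1 to 14.5 in WT and 12.8 to 14.7 in KO, and it was 13.8 in KO 1, the mouse with the most Blk. Blnk made up 78.7% of this sum. The mean log2 level over the tested markers, which weights each gene equally, was 0.09, 0.42 and 0.49 above the WT mean in KO 1, 2 and 7, and between -0.02 and 0.03 in the WT mice, so by this measure every KO array lay above every WT array. Among the defining markers, the Ms4a1 probe was well above background on 1 WT and 1 KO array, and the Cd79a probe on 1 WT array and on 2 KO arrays. Fcmr lost its call when WT 2, WT 3 or KO 2 was left out (highest adjusted p = 0.076), and Bank1 passed only without KO 2 among the fits that left out 1 mouse (highest adjusted p = 0.16). Neither passed with slide as a block (adjusted p = 0.14 and 0.28). The part of B cells in the Blk and Ccr6 values was not tested.

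Maf encodes c-Maf, a transcription factor that gamma delta T cells need to become makers of IL-17, and which macrophages and other cells of skin also express. It was read by 2 probes that disagreed. The probe designed on the RefSeq transcript, at chr8:118227736-118227795 of mm9, gave 2.58, 2.37 and 2.78 in WT 1, 2 and 3, against 2.79, 3.17 and 3.31 in KO 1, 2 and 7. The groups were separated by only 0.014, between WT 3 and KO 1. The difference was 0.51 ± 0.19, with a 95% interval from 0.06 to 0.96. The probe designed on an Ensembl transcript, at chr8:118207273-118207332, gave -0.99, -1.24 and -0.66 for the WT mice, against -1.23, -1.44 and -1.29 for the KO mice. Its groups overlapped, with a difference of -0.36 ± 0.18. No direction is given for Maf.

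Macrophages express Maf, and of 17 of their markers tested 11 had a negative and 6 a positive difference. Of the 17, 1 fell (Timd4, a receptor of resident macrophages, by -1.36 ± 0.21, limma adjusted p = 0.028), 0 rose and 16 did not pass. At an unadjusted p under 0.05 there were 5 lower and 0 higher, beside 2303 lower and 3998 higher of all 23675 genes. The summed signal was 37.0 to 39.4 in WT, 31.3 in KO 1, 31.5 in KO 2 and 54.7 in KO 7, with 38.0% of it from Csf1r. Timd4 lost its call when WT 1, WT 2, WT 3 or KO 2 was left out (highest adjusted p = 0.11), and with slide as a block (adjusted p = 0.31). The part of macrophages in the Maf values was not tested.

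Sox13 encodes a transcription factor of the fetal program that commits gamma delta T cells to IL-17, and it is expressed in many other cells. Its probe lies at chr1:135279099-135279158 of mm9, on the minus strand. WT 1, 2 and 3 gave -1.96, -1.94 and -1.98, and KO 1, 2 and 7 gave -2.08, -1.80 and -1.66. KO 1 lay below every WT array and the other KO arrays above. The difference was 0.11 ± 0.15, with a 95% interval from -0.24 to 0.47, so a change of more than 0.47 lies outside the interval. Its direction was not stable, at -0.12 within slide 1 and -0.026 with arrays scaled to their medians.

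**Figure D2:**
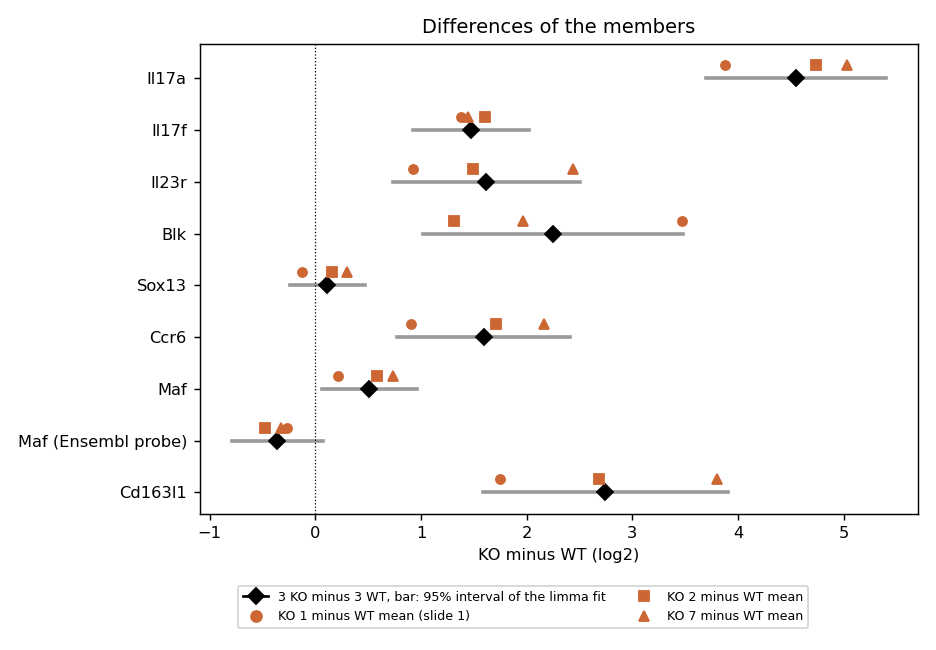
For each member, the diamond is the log2 difference of 3 KO minus 3 WT mice with the 95% interval of the limma fit as a bar, and the smaller symbols above it are single KO mice against the WT mean. In most members KO 1, the array on the WT slide, is the lowest KO mouse and KO 7 the highest, while Blk has KO 1 at 3.47.

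The KO mice kept much the same order across the members. By the probes used in the fit, KO 7 was the highest array for 6 of the 8 genes, all but Il17f and Blk. KO 1 was the lowest KO array for 7, all but Blk. Within slide 1 the median of the members was 1.15, against 0.00 for all genes. KO 1 was above the WT mean for 7 of the 8, with Sox13 below, and on the other probe of Maf it was at -0.27. Because KO 1 is also the only KO array on slide 1, the mouse and the slide cannot be told apart in this order. How often the same order held among all genes was not counted, so it is not taken as a trait of the members.

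Leaving out 1 mouse changed which members the fit called. Without KO 1 there were 6 (Il17a, Il17f, Il23r, Blk, Ccr6 and Cd163l1), beside 717 of all 23675 genes called higher. In that fit slide and group cannot be told apart. Without WT 3 there were 2 (Il17a and Il17f), beside 217 genes called higher. Without KO 7 there were 2 (Il17a and Cd163l1), beside 417. Without WT 1, WT 2 or KO 2 there was 1, Il17a, beside 301, 183 and 219 genes. With slide as a block, Il17a and Blk were called, beside 158 genes called higher, and that difference is KO 1 minus the WT mean. As the calls over all genes moved too, nothing is read from the member counts. Il17a was called in 16 of 17 alternatives that could test it, Il17f in 10 of 17 and Cd163l1 in 9 of 18. Ccr6 was called in 3 of 18, Il23r in 2 of 18, Blk in 2 of 17, and Sox13 and Maf in none of 18. The alternatives share arrays, and the series matrix values repeat the main fit, so these counts are no independent support. The set was also chosen with this contrast in view. Il17a, Il17f and Blk were well above background on all 3 KO arrays, but on only 1, 2 and 2 WT arrays.

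Across the 6 arrays the members' signals ran together, as genes with a difference between the groups do. Pearson's r was 0.93 for Il17a with Il17f, 0.93 with Il23r and 0.95 with Cd163l1, and 0.79 with Blk. Ccr6 and Cd163l1 had 0.99, and Il23r and Cd163l1 0.98. Blk and Sox13 had -0.02. These are descriptions over 6 arrays that share the contrast between the groups.

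The genes with the most similar pattern to Il17a over the 6 arrays, among 16564 named genes compared, were Elovl3, which encodes a fatty acid elongase of skin (r = 0.9996), S100a9 (r = 0.997), Orai2-ps (r = 0.996), Grpr, the gastrin-releasing peptide receptor (r = 0.996), and Gpr82 (r = 0.996). In all 821 genes had r above 0.9 with Il17a. For Il23r the nearest were the chemokine receptor gene Cxcr1 (r = 0.998), Nppb (r = 0.997), the mucin gene Muc13 (r = 0.997), the formyl peptide receptor gene Fpr2 (r = 0.996) and Celsr3 (r = 0.996), with 1308 genes above 0.9. Elovl3 read 2.47, 2.18 and 2.14 in WT 1, 2 and 3, against 3.56, 3.91 and 4.01 in KO 1, 2 and 7, the same order of mice as Il17a. The Cxcr1 signal was -6.29, -5.00 and -2.71 in KO 1, 2 and 7, with KO 7 far above the others, as for Il23r.

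Genes known to control the type 17 program gave no call. Of 15 regulators tested 0 passed in either direction by limma, and their median was 0.07 beside 0.05 for all genes. At an unadjusted p under 0.05, 5 were higher and 1 lower, beside 3998 and 2303 of all 23675 genes. The difference was positive in 9 of the 15 and negative in 6. Their summed signal was higher in each KO mouse (47.6 to 51.6) than in each WT mouse (39.2 to 45.5). Stat3 made up 23.3% of this sum, the largest share of any gene in the list. The mean log2 level was 0.13 to 0.25 above the WT mean in KO, against at most 0.13 in WT. Batf, a factor that opens type 17 loci, differed by 1.06 ± 0.28 (limma adjusted p = 0.092), and Stat3, which carries the interleukin 23 signal, by 0.81 ± 0.21 (adjusted p = 0.092), with 0.21 from its other probe. Cd79a, Ms4a1, Scart2, Cd27, Il22 and the genes named only because their probes were at background fall outside the rule for naming genes and were chosen after their values were seen.

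Of 19 receptors and surface molecules of type 17 lymphocytes tested, 2 rose, 0 fell and 17 did not pass. The difference was positive in 16, and the median was 0.47, or 0.28 within slide 1, beside 0.05 and 0.00 for all genes. Icos, a costimulatory receptor, rose by 2.58 ± 0.36 (limma adjusted p = 0.021). Il18r1, the interleukin 18 receptor, rose by 1.25 ± 0.20 (limma adjusted p = 0.032), though its other probe gave 0.01. Icos passed only without KO 1 and without KO 7 among the fits that left out 1 mouse, and Il18r1 only without KO 1, with highest adjusted p of 0.087 and 0.12. Neither passed with slide as a block (adjusted p = 0.062 and 0.28). The summed signal of these genes was 20.2 to 22.1 in WT and 24.6, 31.5 and 38.9 in KO 1, 2 and 7, the order of mice seen in most members. Tmem176b made up 45.2% of it. Cd27, which the IL-17 makers lack, differed by -0.07 ± 0.31, with 0.35 from its other probe. Its signal was dim, with means of -7.01 in WT and -7.09 in KO, and well above background on only 2 KO arrays.

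Gamma delta T cells are defined by their receptor, and few probes read it. Of 19 gamma and delta receptor gene names looked for, 3 matched a probe and none of these was a constant region gene. Trgv2 was not well above background on any array. Trgv1, a gamma variable segment, had a difference of 1.08 ± 0.26, which missed the threshold (limma adjusted p = 0.081). It read -5.42, -5.97 and -5.77 in WT 1, 2 and 3, against -4.69, -5.05 and -4.18 in KO 1, 2 and 7, without overlap. Trdv5, a delta variable segment, differed by 0.26 ± 0.36 (adjusted p = 0.65), and was well above background on 2 arrays of each group. The label of the set as genes of gamma delta T cells rests on what is known of the members and was not checked here by the receptor's constant regions.

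Of 18 general T cell genes tested, 1 rose (Cd6, by 2.31 ± 0.34, limma adjusted p = 0.026, with -0.04 from its other probe), 0 fell and 17 did not pass, with a median of 0.46, or 0.20 within slide 1. The difference was positive in 15. At an unadjusted p under 0.05 there were 8 higher and 2 lower, beside 3998 and 2303 of all 23675 genes. Skap1, an adaptor of T cell adhesion, differed by 0.73 ± 0.20 (adjusted p = 0.10). Their summed signal was 18.3 to 22.2 in WT and 19.3, 26.4 and 32.2 in KO 1, 2 and 7, and Thy1 made up 61.7% of it. The mean log2 level over the tested genes was 0.21, 0.57 and 0.67 above the WT mean in KO 1, 2 and 7, and between -0.09 and 0.17 in the WT mice. KO 1 was thus inside the WT range by the sum and above it by the mean. Cd6 passed only without KO 1 and without KO 7 among the fits that left out 1 mouse (highest adjusted p = 0.11), and not with slide as a block (adjusted p = 0.23). The part of T cell number in the members' values was not tested.

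Of 14 genes of dendritic epidermal T cells and cytotoxic cells tested, 0 rose, 1 fell and 13 did not pass, with a median of 0.04. At an unadjusted p under 0.05 there were 3 higher and 3 lower, beside 3998 and 2303 of all 23675 genes. The summed signal of the list was 6.73 to 7.26 in WT and 7.83, 7.82 and 11.0 in KO 1, 2 and 7. Ctla2a made up 47.9% of it. The mean log2 level of the tested genes, relative to the WT mean, overlapped between the groups. It was -0.12, 0.18 and 0.01 in KO 1, 2 and 7 and -0.05 to 0.08 in WT. Xcl1, a chemokine of activated epidermal and cytotoxic T cells, fell by 1.65 on the log2 scale (SE 0.29, limma adjusted p = 0.044). It gave -2.64, -2.91 and -2.52 in WT 1, 2 and 3, against -3.95, -4.08 and -4.98 in KO 1, 2 and 7. It passed without KO 1 and without KO 7 but in none of the other fits that left out 1 mouse (highest adjusted p = 0.12), nor with slide as a block (adjusted p = 0.44). Fgf10, a growth factor ascribed to epidermal T cells, differed by -0.78 ± 0.21 (adjusted p = 0.10). The probes of Ncr1 and Cd160 stayed at background throughout.

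Innate lymphoid cells can also make IL-17. Of 11 of their markers tested 2 rose, 0 fell and 9 did not pass, with a median of 0.36. The 2 were Il18r1 as above and the growth factor gene Areg (2.55 ± 0.28, limma adjusted p = 0.0088). At an unadjusted p under 0.05, 4 were higher and 0 lower, beside 3998 and 2303 of all 23675 genes. The markers' mean log2 level was 0.29, 0.76 and 0.71 above the WT mean in KO 1, 2 and 7. In the WT mice it was between -0.05 and 0.05. The summed signal overlapped, at 27.3 to 29.6 in WT and 28.1 to 30.7 in KO, with 82.8% of it from Gata3. Areg passed in each of the 6 fits that left out 1 mouse but not with slide as a block (adjusted p = 0.13). Keratinocytes make Areg as well. Of 12 dendritic and Langerhans cell markers, 0 passed by limma. At an unadjusted p under 0.05 there were 3 higher and 0 lower, beside 3998 and 2303 of all 23675 genes. Ccr7, which guides dendritic cells to lymph nodes, differed by 1.03 ± 0.30 (adjusted p = 0.11), and Siglech, of plasmacytoid cells, by 0.74 ± 0.23 (adjusted p = 0.12), though its other probe gave -0.48. The summed signal of the dendritic and Langerhans markers was 73.9 to 89.3 in WT, 87.7 in KO 1, 88.2 in KO 2 and 136 in KO 7. H2-Ab1 made up 62.5% of it. Their mean log2 level was 0.15, 0.24 and 0.41 above the WT mean in KO 1, 2 and 7, and between -0.18 and 0.21 in WT. The part of these cells in the members' values was not tested.

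**Figure D3:**
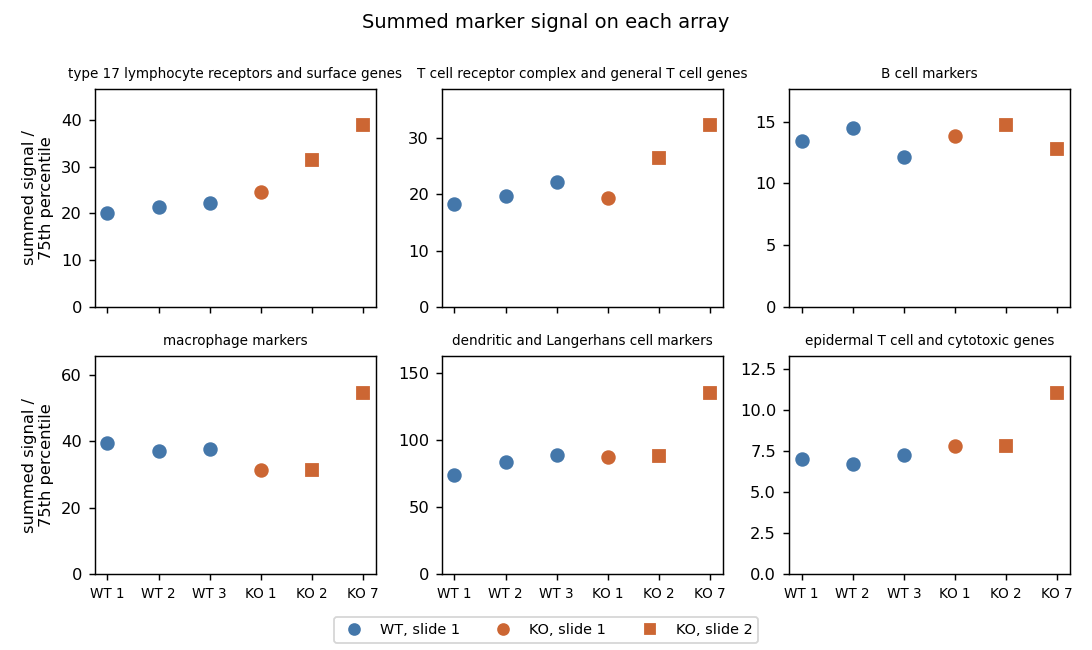
Each panel plots the summed signal of 1 marker list on the y axis, in units of the array's 75th percentile from 0, for the 6 arrays on the x axis. The type 17 receptor list is at 24.6 in KO 1 and 38.9 in KO 7, and B cell markers are at 12.8 to 14.7 in KO and 12.1 to 14.5 in WT, a sum of which 78.7% is Blnk.

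Other cytokines of type 17 cells gave no call. Of 9 tested 0 passed by limma, and the median was 0.60, or 0.22 within slide 1. At an unadjusted p under 0.05 there were 3 higher and 0 lower, beside 3998 and 2303 of all 23675 genes. Ltb, a lymphotoxin chain, differed by 1.62 ± 0.43 (adjusted p = 0.095) and Tnf by 1.11 ± 0.34 (adjusted p = 0.12). Il22, a partner cytokine of IL-17 that acts on keratinocytes, differed by 0.22 ± 0.18. It read -5.93, -6.39 and -5.77 in WT 1, 2 and 3, against -5.78, -5.82 and -5.84 in KO 1, 2 and 7, and the groups overlapped. Il17c was not well above background on any array.

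Inducers of IL-17 gave no call either. Of 9 tested 0 passed by limma, and the median was -0.01. At an unadjusted p under 0.05 there were 2 higher and 1 lower, beside 3998 and 2303 of all 23675 genes. Il1b, a direct stimulus of gamma delta T cells, had a difference of 4.05 ± 0.92, which missed the threshold (adjusted p = 0.074). It gave -2.80, -3.28 and -4.36 in WT 1, 2 and 3, against -0.15, -0.82 and 2.69 in KO 1, 2 and 7, so KO 7 stood far above the other mice. Il1a differed by -0.94 ± 0.36 (adjusted p = 0.17). The probes of Il23a, the specific chain of interleukin 23, and of Il12a stayed at background on all 6 arrays, and that of Il12b was well above it on KO 2 alone.

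The receptors and adaptors through which skin cells sense IL-17 gave no call. Of 9 tested 0 passed by limma, and the median was -0.03. At an unadjusted p under 0.05 there were 2 higher and 0 lower, beside 3998 and 2303 of all 23675 genes. Il17rc, a receptor chain for IL-17A and IL-17F, differed by 0.39 ± 0.15 (adjusted p = 0.18, with 0.09 from its other probe) and Il17re, the receptor for IL-17C, by 0.33 ± 0.14 (adjusted p = 0.18).

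Of 18 genes that skin is known to switch on in response to IL-17, 10 rose, 0 fell and 8 did not pass, with a median of 2.72, or 1.99 within slide 1. Zc3h12a, which encodes the RNase Regnase-1, rose by 1.86 ± 0.14 (limma adjusted p = 0.0024), and Nfkbiz, whose product IκBζ carries the IL-17 signal to defence genes, by 2.13 ± 0.18 (limma adjusted p = 0.0035). The calprotectin genes S100a8 (4.72 ± 0.35) and S100a9 (4.69 ± 0.30) rose as well. These 4 passed in each of the 6 fits that left out 1 mouse and with slide as a block, where the difference is that of KO 1 alone. The other 6 called genes (Lcn2, Defb3, Defb14, Il20, Csf3 and Il1f6) lost their calls with slide as a block, at adjusted p of 0.19, 0.15, 0.21, 0.25, 0.42 and 0.45. Each also lost its call in some of the fits that left out 1 mouse. These were the fits without WT 2 or KO 2 for Lcn2, WT 2 or WT 3 for Defb3, any WT mouse for Defb14, any WT mouse or KO 2 for Il20, any WT mouse or KO 1 for Csf3, and all but KO 1 for Il1f6 (highest adjusted p = 0.072, 0.086, 0.075, 0.12, 0.15 and 0.15). Csf3 was well above background on 3 KO arrays and on 0 WT arrays. It passed the filter only through the KO arrays, so its call rests on WT values at background. Nfkbiz gave -4.29, -4.52 and -4.05 in WT 1, 2 and 3, against -2.35, -2.18 and -1.95 in KO 1, 2 and 7. Other stimuli of keratinocytes are known to raise these genes too, and neutrophils express S100a8 and S100a9. Their part in these values was not tested.

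**Figure D4:**
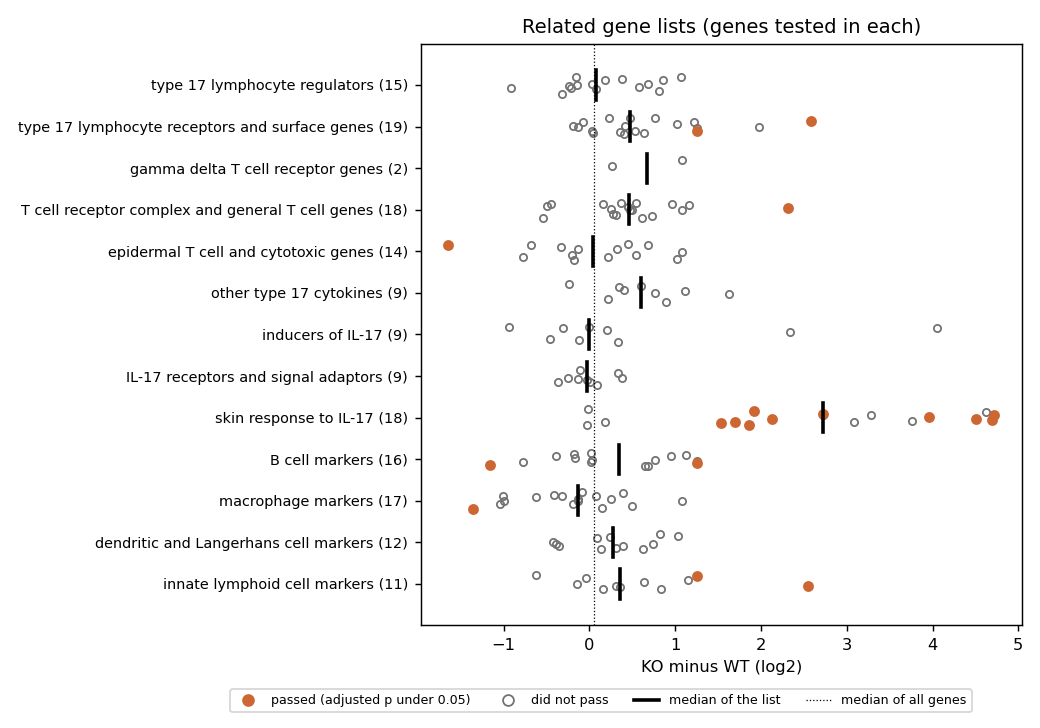
Each circle is 1 tested gene, placed by its log2 difference of KO minus WT on the x axis within its list on the y axis and shifted up or down only to avoid overlap. Filled circles passed, short bars are list medians and the dotted line is the median of all genes. The skin response list has 10 filled circles and a median of 2.72, and the other lists have medians from -0.13 to 0.67.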

How the data were processed

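Total RNA from ear skin of 3 WT and 3 KO mice was read on 6 one-colour Agilent arrays. The deposited scanner files give a processed signal per spot as an intensity, made with Agilent Feature Extraction 10.7.3.1, per the file headers, with background subtracted, trends within the array corrected and low values replaced by surrogates. Probe positions are on mm9, per the file headers. The authors' series matrix holds the same intensity for all 43340 features, and was used as an alternative. Outlier spots (170 to 249 of 43020 per array) were left out, spots of a probe averaged, and log2 of the signal minus the array's 75th percentile taken. Probes were kept if 3 or more of the 6 arrays called them well above background (29601 of 39429; 40 others had no usable spot on some array), with the probe of highest mean for each of 23675 genes. No spot was saturated, and the number of arrays limits the precision.

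Probes were named from a RefSeq table (GRCm38.p6, names only), which matched 26055 by accession, 3195 by symbol and 930 by synonym, while 9249 kept the scanner file's name. Where a probe lies in its gene (exon or UTR) was not determined. KO was compared with WT over all genes in limma 3.58.1 (R 4.3.3), two-sided, with Benjamini-Hochberg adjustment and no covariate, and passed at an adjusted p under 0.05. The fit was tested on simulated data. Replicate numbers 1 and 2 occur in both groups, and nothing in the labels says that they pair mice.

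The members, the 13 gene lists (165 genes tested in all, of which 15 rose and 3 fell) and the rules were chosen with earlier results of these data known. All members are named. In a list, up to 4 called genes are named in order of p (all, if 5 or fewer were called), and lists with fewer than 2 calls give their 2 genes of lowest p. For likeness, the 5 named genes with the highest Pearson r over 6 arrays are given. Alternatives covered background (normexp, offset 50), scaling, filter, probe summary, source of values, replicate and slide blocks, an intensity trend and each mouse left out.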

Additional observations from a re-analysis of the deposited data

How the results depend on the processing

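The fit called 468 genes higher, 92 lower, and 3 members higher. With normexp background 859 genes were higher and 5 members called. Scaling to array medians gave 149 genes lower, and moved the median difference of all genes from 0.05 to -0.08. Without a filter there were 269 higher, 27 lower and 1 member (Il17a), and with a filter on all 6 arrays 1 member (Cd163l1), since Il17a, Il17f and Blk were then not tested. With slide as a fixed block, where the difference rests on KO 1 alone, there were 158 higher and 10 lower. With 1 mouse left out, higher calls ranged from 183 to 717, lower calls from 19 to 254 and called members from 1 to 6. With replicate number as a block, limma called 0 genes higher, 0 lower and 0 members, with 2954 higher and 1562 lower at an unadjusted p under 0.05 and 1 residual degree of freedom. Deviations of same-numbered mice correlated at 0.083 and 0.054. Sox13 reversed to -0.026 with array medians and to -0.12 with the slide block or within slide 1, and Maf to -0.36 on its other probe. The cause was not tested. Il17a kept a positive difference in 18 of 18 alternatives (2.81 to 4.88), Il17f in 18 of 18 (0.80 to 1.72), Il23r in 19 of 19 (0.92 to 1.97), Blk in 18 of 18 (1.24 to 3.47), Ccr6 in 19 of 19 (0.90 to 1.94) and Cd163l1 in 19 of 19 (1.74 to 3.24). These counts hold slide as a fixed block and slide 1 alone as separate alternatives, though both give the same difference. Series matrix values repeat the main fit. Dim WT signal limits the folds of Il17a, Il17f and Blk.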
